A study of Mus musculus with 34 samples.

Results

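Fibroblast growth factor (FGF) signaling was examined through 10 of the 23109 genes measured in immortalized mouse brown preadipocytes. They are the 5 ligand genes *Fgf1*, *Fgf2*, *Fgf7*, *Fgf10* and *Fgf21*, the 4 receptor genes *Fgfr1* to *Fgfr4*, and *Klb*, the gene of the co-receptor β-Klotho. The set was chosen by pathway membership and partly selected on the RPKM of *Fgf10*, which was known from earlier results of these data to be lower in both perturbations of H3K36 methylation. The levels of *Fgf10* in those contrasts are therefore given as a description. The cells carry SV40T and are labelled C57BL/6J, GR flox/flox (a floxed glucocorticoid receptor gene), whereas the methods describe preadipocytes of newborn WT mice. The labels also describe infection with Vec or with Cre, the latter deleting that receptor, to which the dexamethasone of the induction mix binds, and do not say which of the pair each RNA-Seq library carries. Each of the 14 RNA-Seq libraries is the single library of its condition. No p-value is given, since a difference between conditions cannot be set against replicates. The H3.3 series has 6 libraries, from cells with retroviral FLAG-tagged H3.3, either WT or the K36M mutant that depletes methylation of this residue, collected at D0, D2 and D7. The PPARγ experiment has 4, from both H3.3 populations after infection with PPARγ, given the vehicle DMSO or the PPARγ ligand rosiglitazone (Rosi). The labels put DMSO at 0 h and Rosi at 24 h, under which ligand and time cannot be told apart, whereas the methods describe both treatments as lasting 24 h. The remaining 4 come from cells with lentivirus carrying a control shRNA (Ctrl) or knocking down *Nsd2* (KD), the gene of an H3K36 methyltransferase, at D0 and D2. Adipogenesis was induced with insulin, T3, IBMX, dexamethasone and indomethacin. Whether the experiments started from the same immortalized isolate, and which *Nsd2* shRNA was used, is not given in the labels.

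FGFs are secreted proteins that bind receptor tyrosine kinases at the cell surface, with heparan sulfate chains as a cofactor, and signal to the MAP kinase cascade. FGF7 and FGF10 are closely related paracrine factors of mesenchymal cells that act on the IIIb splice form of FGFR2, and FGF10 is also known as a product of preadipocytes needed for growth of white fat. FGF21 is a hormone with weak heparan sulfate binding, made in liver and fat, that needs β-Klotho next to FGFR1 to signal in adipocytes. FGF1 and FGF2 bind most receptor forms.

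Levels are RPKM, reads corrected for the length of the transcript and for library depth. Mapped reads ranged from 12213559 to 24365867, and 3 reads correspond to an RPKM of 0.123 to 0.246 for a transcript of 1 kb. Ratios are given on the log2 scale of RPKM with a 95% Clopper-Pearson interval, which covers counting error and compares 2 libraries, not 2 conditions. *Nsd2* was at an RPKM of 5.85 in KD against 19.9 in Ctrl cells at D0, and at 7.01 against 29.0 at D2. The summed RPKM of 10 adipocyte markers ranged from 46.6 to 5852, and that of 7 mesenchymal progenitor markers from 50.9 to 1913. *Ucp1* and *Cidea*, which mark mature brown adipocytes, did not reach an RPKM of 1 in any library, and *Prdm16*, a regulator of brown fat fate, was at most 3.36. Among markers of adipocytes in general, WT D2 cells had *Fabp4* at 3249, *Lpl* at 2145 and *Cebpa* at 208, but *Adipoq* at 6.16. In KD D2 cells these were at 34.5, 105, 4.80 and 0.184. The brown preadipocyte label itself is not checked by these markers of mature cells. Of the muscle markers *Acta1* reached 67.5 in PPARγ K36M DMSO cells, whereas *Myod1*, *Myf5* and *Myog* were near 0 throughout. The summed markers were at most 2.47 for endothelial cells, 3.11 for macrophages and 12.8 for epithelial cells. Between 15868 and 20121 genes were above 0, the most in PPARγ K36M DMSO cells, which also had the highest muscle, macrophage and epithelial sums. The median log2 ratio of all genes was between -0.25 and 0.13 in the 17 comparisons made.

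The promoters of *Fgf10*, *Fgf7*, *Fgf21* and *Klb* are shown because the results below turn on these genes. Each window is the 250 bases before the RefSeq start, 5′ to 3′ on the strand of the gene, in GRCm38.p6. Capitals mark matches, on either strand, to 5 motifs: AGGTCA, the half-site of nuclear receptors, 2 of them in a row with 1 base between as AGGTCANAGGTCA, the C/EBP motif TTGCNNAA, the C/EBP-ATF composite TGATGNAA, and the TATA box TATAAA.
Fgf10, chr13:118714449-118714698, plus strand: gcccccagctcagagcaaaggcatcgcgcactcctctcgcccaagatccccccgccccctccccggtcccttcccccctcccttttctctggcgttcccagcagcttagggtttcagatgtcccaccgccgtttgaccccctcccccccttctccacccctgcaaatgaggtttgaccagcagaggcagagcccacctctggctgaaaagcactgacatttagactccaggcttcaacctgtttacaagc
Fgf7, chr2:126034408-126034657, plus strand: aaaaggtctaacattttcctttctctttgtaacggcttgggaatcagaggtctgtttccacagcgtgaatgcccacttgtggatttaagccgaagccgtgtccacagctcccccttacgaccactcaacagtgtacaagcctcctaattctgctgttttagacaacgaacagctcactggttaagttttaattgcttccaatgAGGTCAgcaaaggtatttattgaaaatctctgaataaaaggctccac
Fgf21, chr7:45615491-45615740, minus strand: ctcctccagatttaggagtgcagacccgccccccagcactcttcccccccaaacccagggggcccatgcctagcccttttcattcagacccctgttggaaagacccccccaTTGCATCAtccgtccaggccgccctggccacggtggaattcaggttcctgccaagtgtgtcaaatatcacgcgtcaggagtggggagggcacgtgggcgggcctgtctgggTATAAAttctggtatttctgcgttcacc
Klb, chr5:65348161-65348410, plus strand: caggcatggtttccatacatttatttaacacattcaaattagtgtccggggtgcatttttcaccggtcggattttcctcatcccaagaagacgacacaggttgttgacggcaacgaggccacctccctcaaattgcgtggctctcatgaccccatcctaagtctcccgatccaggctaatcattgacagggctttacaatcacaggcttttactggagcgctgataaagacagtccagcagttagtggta
The *Fgf7* window held AGGTCA from 47 to 42 bases before the start. In that of *Fgf21* the composite stood on the reverse strand from 139 to 132 bases before the start, and TATAAA from 28 to 23. No match to the 5 motifs was present in the windows of *Fgf10* and *Klb*. Among all 32851 RefSeq windows of this length, AGGTCA was in 14.02%, AGGTCANAGGTCA in 0.0335%, TTGCNNAA in 9.56%, TGATGNAA in 3.45% and TATAAA in 12.4%. Windows were found for 8 of the 10 genes, and a match of letters is not evidence of binding.

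*Fgf10* rose between D0 and D2 in control cells, and its levels were lower in K36M cells. The gene lies in mm9 at chr13:119458598-119580922 on the plus strand and was measured by transcript NM_008002. It shares 69 exon bases with the antisense gene *Gm16263*, which was not analysed here. Cells with WT H3.3 had a *Fgf10* RPKM of 5.55 (D0), 19.3 (D2) and 8.70 (D7). The K36M cells had 0.242, 1.22 and 1.18 on these days, so each K36M library was below every library of the WT series. The log2 ratio of K36M to WT was -4.52 at D0 (interval -5.20 to -3.91), -3.98 at D2 and -2.88 at D7. In the PPARγ experiment the WT cells went from 0.613 (DMSO) to 3.13 (Rosi), and the K36M cells from 0.0359 (4 reads) to 0.121 (7 reads). The K36M libraries were again the lower ones, with a log2 ratio to WT of -4.09 with DMSO (-6.02 to -2.66) and -4.70 with Rosi (-6.03 to -3.63).

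The difference had another shape in KD cells. *Fgf10* RPKM was 1.51 in Ctrl and 1.10 in KD cells at D0, and 13.9 in Ctrl and 0.755 in KD cells at D2. The log2 ratio of KD to Ctrl was thus -0.45 at D0 (-0.85 to -0.05) and -4.20 at D2 (-4.60 to -3.83). From D0 to D2 *Fgf10* rose 9.24-fold in Ctrl cells and did not pass 2-fold in KD cells, where D2 was 1.46-fold below D0. In the H3.3 experiment the same step was a 3.48-fold rise in WT and a 5.04-fold rise in K36M cells, the latter from 22 to 70 reads. The K36M cells therefore started from a low level and rose, whereas the KD cells started near the Ctrl level and did not rise. These contrasts share the D0 and D2 libraries of their controls. The WT and Ctrl populations, the controls of the different experiments, differed by a log2 ratio (Ctrl to WT) of -1.88 at D0 and -0.47 at D2. The sum of the adipocyte markers moved in the same direction at D2, with 5852 in WT, 2120 in K36M, 2502 in Ctrl and 164 in KD cells. *Fabp4* (3249) and *Lpl* (2145) were its largest parts in WT cells. Of 9 markers with reads, 5 were lower and 1 higher past 2-fold in K36M than in WT cells (9.90% and 22.2% of all genes). *Adipoq* (10.6 against 6.16) and *Prdm16* (3.36 against 1.55) were higher in K36M cells. In KD over Ctrl, 8 of 10 were lower and 1 higher, where 30.4% of all genes passed in either direction. In bulk RNA, fewer cells of a type and less RNA per cell cannot be told apart, and the part of the marker level in the *Fgf10* result was not tested.

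**Figure D1:**
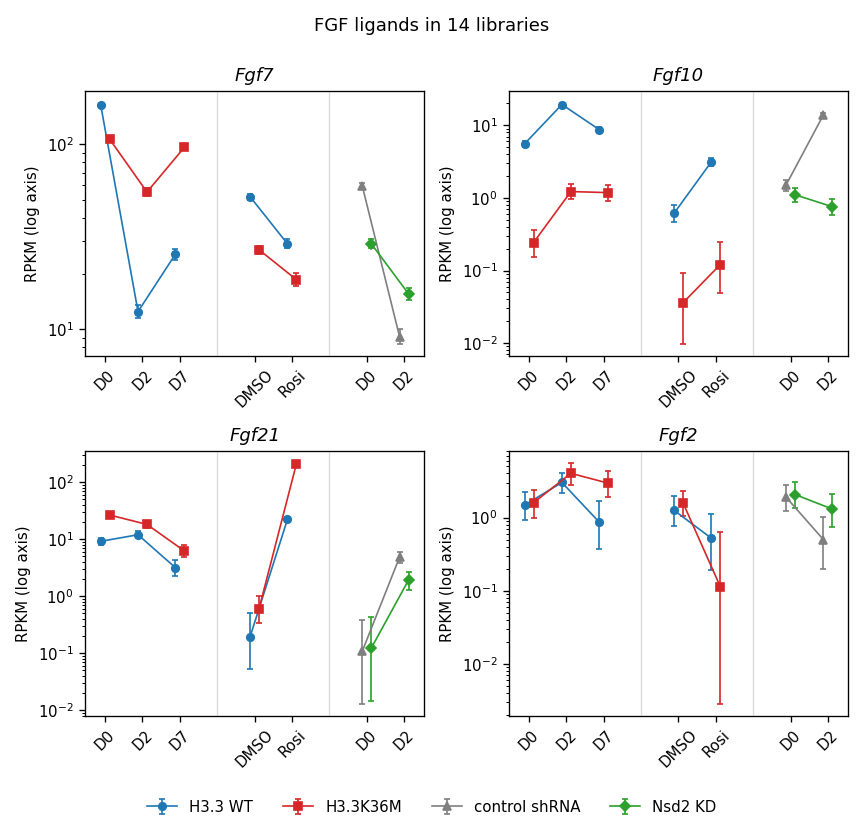
RPKM (log axis) of *Fgf7*, *Fgf10*, *Fgf21* and *Fgf2* in each of the 14 libraries. Columns are D0, D2 and D7 of the H3.3 series, DMSO and Rosi with ectopic PPARγ, and D0 and D2 of the shRNA series, and colors and shapes give the cells. Bars are exact 95% Poisson intervals of the reads, and lines join libraries of the same cells. *Fgf10* at D2 is at 19.3 and 13.9 in the control cells and at 1.22 and 0.755 in K36M and KD cells.

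*Fgf7*, the paralog with the same receptor form, was the most abundant of the 5 ligands in 11 of the 14 libraries and went down where *Fgf10* went up in control cells. It lies at chr2:125860394-125916921 on the plus strand in mm9 (NM_008008). WT cells had an RPKM of 163 (D0), 12.5 (D2) and 25.5 (D7), and K36M cells had 106, 55.1 and 96.1. Ctrl cells had 59.8 at D0 and 9.15 at D2, and KD cells 29.1 and 15.6. Between D0 and D2 *Fgf7* fell by 13.1-fold (WT) and 6.53-fold (Ctrl). In the perturbed cells D2 was 1.93-fold (K36M) and 1.87-fold (KD) below D0, neither past 2-fold. The log2 ratio of perturbed to control was negative at D0, -0.62 for K36M and -1.04 for KD, and positive at D2, 2.14 and 0.77. At D7 it was 1.92 for K36M. With ectopic PPARγ *Fgf7* was at 52.0 (DMSO) and 29.0 (Rosi) in WT, and at 26.9 and 18.6 in K36M cells. There the K36M libraries were the lower ones at either time, and neither Rosi ratio (-0.84 in WT, -0.53 in K36M cells) passed 2-fold. The mesenchymal marker sum fell with *Fgf7* at D2, from 907 to 111 in WT and from 1913 to 139 in Ctrl cells. It went from 395 to 291 in K36M and from 503 to 50.9 in KD cells. *Col1a1* was its largest part at D0, with 560 in WT and 1678 in Ctrl cells. Of the 7 markers, 7 fell past 2-fold in WT (25.2% of all genes), 6 in Ctrl (23.4%) and 7 in KD cells (24.5%). In K36M cells 2 did (19.6%), while *Pdgfra* rose from 8.30 to 11.2 and *Ly6a* from 60.5 to 86.3. The part of these markers in the *Fgf7* result was not tested.

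Because FGF7 and FGF10 act on the same receptor form, their levels were also compared within each library. The ratio of *Fgf7* to *Fgf10* RPKM was 29.4 in WT and 39.7 in Ctrl cells at D0 and fell below 1 at D2, to 0.646 (0.589 to 0.708) and 0.658 (0.592 to 0.731). It was thus nearly the same in these separate control populations at D2. In K36M cells the ratio was 439 at D0 and 45.1 at D2, and in KD cells 26.3 at D0 and 20.6 at D2 (15.9 to 27.2). At D7 it was 2.92 in WT and 81.3 in K36M cells. In the PPARγ experiment the ratio was 84.8 (DMSO) and 9.25 (Rosi) for WT, and 749 and 154 for K36M cells. *Fgf10* exceeded *Fgf7* in WT D2 and Ctrl D2 cells and in none of the other libraries. The set was partly chosen because *Fgf10* was lower in both perturbations, which raises this ratio in perturbed cells. The ratios of perturbed against control cells are therefore a description and not a separate result.

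**Figure D2:**
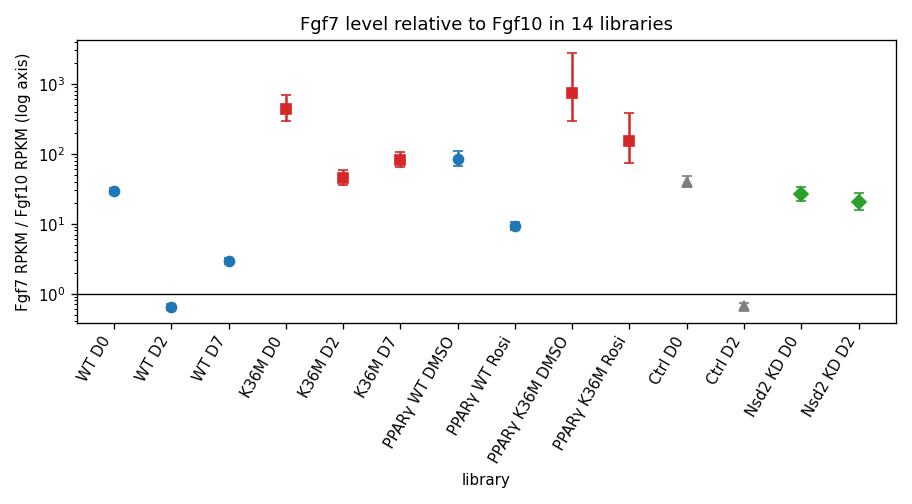
Ratio of *Fgf7* to *Fgf10* RPKM (log axis) in each of the 14 libraries, with 95% Clopper-Pearson intervals that cover counting error. Blue circles are H3.3 WT, red squares K36M, gray triangles Ctrl and green diamonds KD cells, and the line marks equal levels. WT D2 and Ctrl D2 lie below the line at 0.646 and 0.658, and the highest ratio is 749 in PPARγ K36M DMSO cells.

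*Fgf21*, the endocrine ligand, had its largest ratios with Rosi, and with Rosi it was higher in K36M than in WT cells. It lies at chr7:52869277-52870860 on the minus strand in mm9 (NM_020013). In WT cells with ectopic PPARγ its RPKM went from 0.194 (4 reads) to 22.3, and K36M cells went from 0.607 (14 reads) to 212. On this scale the log2 ratio of Rosi to DMSO was 6.85 (5.48 to 8.73) in WT and 8.45 (7.70 to 9.32) in K36M cells, and these intervals overlap. With Rosi the K36M level was 9.47-fold above the WT level, a log2 ratio of 3.24 (3.08 to 3.41). The adipocyte marker sum went the other way there, being 3765 for WT and 1475 for K36M cells given Rosi. Of 9 markers with reads, 7 were lower past 2-fold and 1 higher in K36M cells (12.6% and 28.4% of all genes).

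During adipogenesis *Fgf21* RPKM was 9.18, 11.99 and 3.17 (D0, D2, D7) in WT cells, against 26.6, 18.2 and 6.23 in K36M cells. The K36M level was the higher one at each time, and only the D0 ratio, 2.90-fold, was past 2-fold. Ctrl cells had 0.107 (2 reads) at D0 and 4.82 at D2, and KD cells 0.121 (2 reads) and 1.91. At D2 the KD level was 2.52-fold below Ctrl, in contrast to the 1.52-fold higher level in K36M over WT cells at D2. The control populations themselves differed more than any perturbed pair at D0, since Ctrl was 85.9-fold below WT. The direction of *Fgf21* in K36M and in KD cells is thus set against starting levels that do not match.

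*Fgf2* and *Fgf1* were low. *Fgf2* (chr3:37211441-37304299, plus strand in mm9, NM_008006, 695 bases) had between 1 and 40 reads in a library and an RPKM from 0.114 in PPARγ K36M Rosi cells to 4.02 in K36M D2 cells. It rose from D0 to D2 in WT (1.48 to 3.01) and K36M cells (1.59 to 4.02) and fell in Ctrl cells (1.89 to 0.500), so the control populations moved in opposite directions. Up to 242 bases of a *Fgf2* exon overlap *Nudt6* on the opposite strand, *Nudt6* was at an RPKM of 0.972 to 5.73, and the libraries are not stated to keep strand, so reads of the 2 genes cannot be told apart there. *Nudt6* was lowest in Ctrl D2 cells (0.972) and next lowest in PPARγ K36M Rosi cells (1.77). *Fgf2* had its lowest levels in the same libraries, at 0.500 and 0.114. Both genes were highest in K36M D2 cells, *Nudt6* at 5.73 and *Fgf2* at 4.02. Other libraries did not follow this order. In PPARγ WT cells *Fgf2* went from 1.26 (DMSO) to 0.522 (Rosi), while *Nudt6* went from 2.36 to 3.16. WT D7 cells had *Fgf2* at 0.864 and *Nudt6* at 3.57. The part of *Nudt6* in the *Fgf2* values was not tested. *Fgf1* (NM_010197, chromosome 18) had 1 to 10 reads in each library and no RPKM above 0.173, and no interval of *Fgf1* except D7 over D2 in WT cells excluded equal levels. Of 17 other FGF ligand genes *Fgf18* alone reached an RPKM of 1, with 1.44 in PPARγ K36M DMSO cells.

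*Fgfr1*, the main partner of β-Klotho in adipocytes, was the dominant receptor and the steadiest member. It lies at chr8:26624126-26686186 on the plus strand in mm9 (NM_001079909). It made up between 80.5% (Ctrl D2) and 96.6% (K36M D7) of the summed RPKM of the 4 receptors. Its RPKM was 54.2, 74.2 and 51.4 (D0, D2, D7) in WT cells, against 64.9, 46.5 and 71.4 in K36M cells. The PPARγ cells had 31.3 (DMSO) and 33.2 (Rosi) when WT, and 31.5 and 22.9 when K36M. Ctrl cells had 36.5 at D0 and 40.4 at D2, and KD cells 42.8 and 26.6. None of the 17 comparisons passed 2-fold for *Fgfr1*. Within that range the direction at D2 differed between control and perturbed cells, with a log2 ratio of D2 to D0 of 0.45 in WT and 0.14 in Ctrl cells, and of -0.48 in K36M and -0.69 in KD cells. The reads of *Fgfr1* were 1375 to 6719 per library, so counting error was small beside these values, but the spread between cultures is unknown.

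*Fgfr2*, whose IIIb form is the receptor of FGF7 and FGF10, was at most 13.7% of the receptor sum and was lower in perturbed than in control cells at D2 and D7. It was measured by NM_201601 (mm9 chr7:137305965-140315033, minus strand, an annotated span that shares an exon with *Ctbp2*). Its RPKM was 2.66 (D0), 7.17 (D2) and 6.83 (D7) in WT cells, against 1.99, 3.65 and 1.72 in K36M cells. Ctrl cells had 4.17 at D0 and 6.88 at D2, and KD cells 2.04 and 1.92. The log2 ratio of K36M to WT was -0.97 at D2, just short of 2-fold, and -1.99 at D7 (-2.32 to -1.68). That of KD to Ctrl was -1.03 at D0 and -1.84 at D2 (-2.09 to -1.59). The control populations did not differ beyond counting error at D2, with an interval of Ctrl over WT from -0.22 to 0.10. With Rosi *Fgfr2* rose in WT cells, from 1.16 to 2.37, and fell in K36M cells, from 1.90 to 0.911. Both transcripts of *Fgfr2* in the files differed by at most 1.03-fold in any library, so the use of the IIIb and IIIc forms cannot be read from these values.

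*Fgfr3* rose from D0 to D2 in all 4 kinds of cells and was not lower in the perturbed cells at D2. The gene is at chr5:34064373-34079716 on the plus strand in mm9 (NM_001163216). Its RPKM went from 0.697 to 2.46 in WT, from 1.21 to 2.62 in K36M, from 0.818 to 2.91 in Ctrl and from 0.884 to 3.85 in KD cells. The log2 ratio at D2 was 0.09 (-0.24 to 0.42) for K36M over WT and 0.40 (0.15 to 0.66) for KD over Ctrl. At D7 *Fgfr3* was at 1.42 in WT cells, between its D0 and D2 levels, and at 0.786 in K36M cells, below its D0 level. With ectopic PPARγ the WT cells went from 0.975 to 2.38 with Rosi, whereas the K36M cells were already at 2.54 with DMSO and had 3.07 with Rosi. *Fgfr4* (NM_008011, mm9 chr13:55254001-55270120, plus strand) had 0 to 30 reads and an RPKM of at most 0.483, in Ctrl D0 cells, and was listed at 0 in PPARγ WT Rosi cells. Its ratios rest on too few reads to rank the other libraries.

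**Figure D3:**
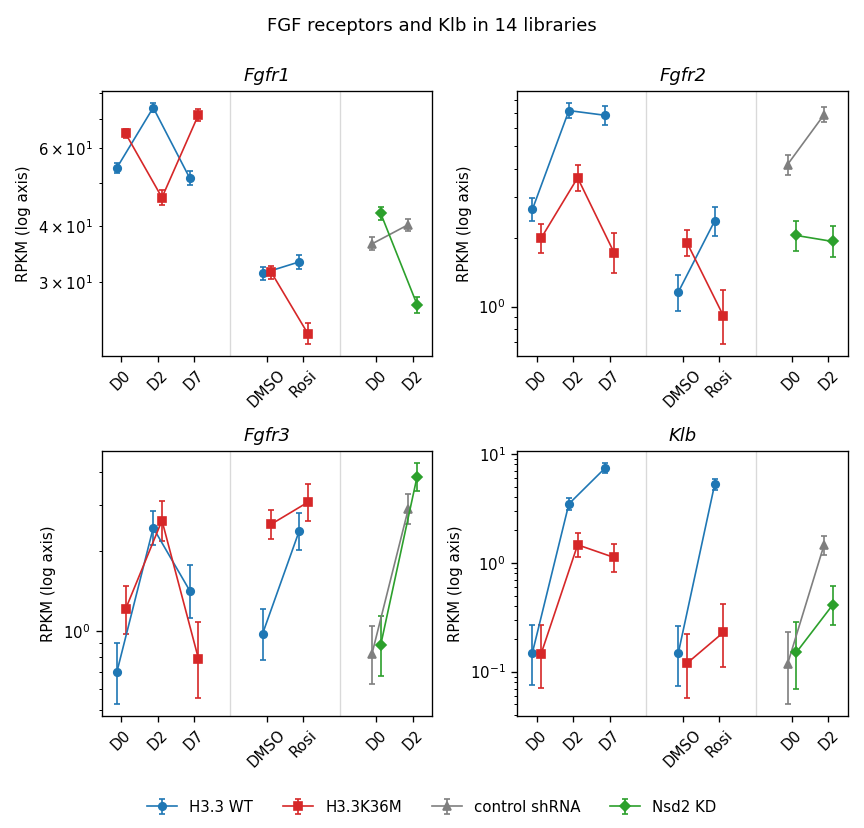
RPKM (log axis) of *Fgfr1*, *Fgfr2*, *Fgfr3* and *Klb* in each of the 14 libraries, laid out as for the ligands, with exact 95% Poisson intervals of the reads. *Klb* starts between 0.118 and 0.150 in every D0 and DMSO library and reaches 7.44 in WT cells at D7 and 0.412 in KD cells at D2.

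*Klb*, which confers FGF21 binding on the receptors, had the most uniform starting level of the members and was induced less in each perturbed series. It lies at chr5:65739625-65775242 on the plus strand in mm9 (NM_031180). In the 6 libraries at D0 or with DMSO its RPKM was between 0.118 and 0.150, from 8 to 11 reads each. In WT cells *Klb* reached 3.47 at D2 and 7.44 at D7, and in K36M cells 1.46 and 1.12. Ctrl cells reached 1.46 and KD cells 0.412 at D2. With Rosi *Klb* was at 5.26 in WT cells, a 35.7-fold rise over DMSO, whereas K36M cells had 0.230 (10 reads). The log2 ratio of perturbed to control was -1.25 (-1.67 to -0.84) for K36M at D2, -2.73 (-3.21 to -2.29) at D7, -4.52 (-5.59 to -3.62) with Rosi, and -1.82 (-2.52 to -1.18) for KD at D2. *Klb* still rose from D0 to D2 in K36M cells, 9.99-fold, and in KD cells, 2.74-fold. The induced level of *Klb* in Ctrl cells at D2, 1.46 (1.19 to 1.77), was that of K36M cells at D2, 1.46 (1.12 to 1.87), and Ctrl was 2.38-fold below WT at D2. A difference of the size seen for K36M at D2 was therefore present between control populations, whereas the *Klb* difference with Rosi was 22.9-fold. The adipocyte marker sum was lower in the same libraries (with Rosi 1475 in K36M and 3765 in WT cells), and its part in the *Klb* result was not tested.

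Ligand and co-receptor of the FGF21 pathway thus differed in opposite directions between K36M and WT cells with Rosi. *Fgf21* was 9.47-fold higher and *Klb* 22.9-fold lower than in WT cells with Rosi, while *Fgfr1* differed by 1.45-fold. Within K36M cells *Klb* did not fall with Rosi (0.119 with DMSO and 0.230 with Rosi, 10 reads each). The directions were also opposite in K36M over WT at D2 (*Fgf21* 1.52-fold higher, *Klb* 2.37-fold lower) and at D7 (1.96-fold higher, 6.65-fold lower). In KD cells at D2 the 3 genes were all lower than in Ctrl cells, *Fgf21* 2.52-fold, *Klb* 3.54-fold and *Fgfr1* 1.52-fold.

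**Figure D4:**
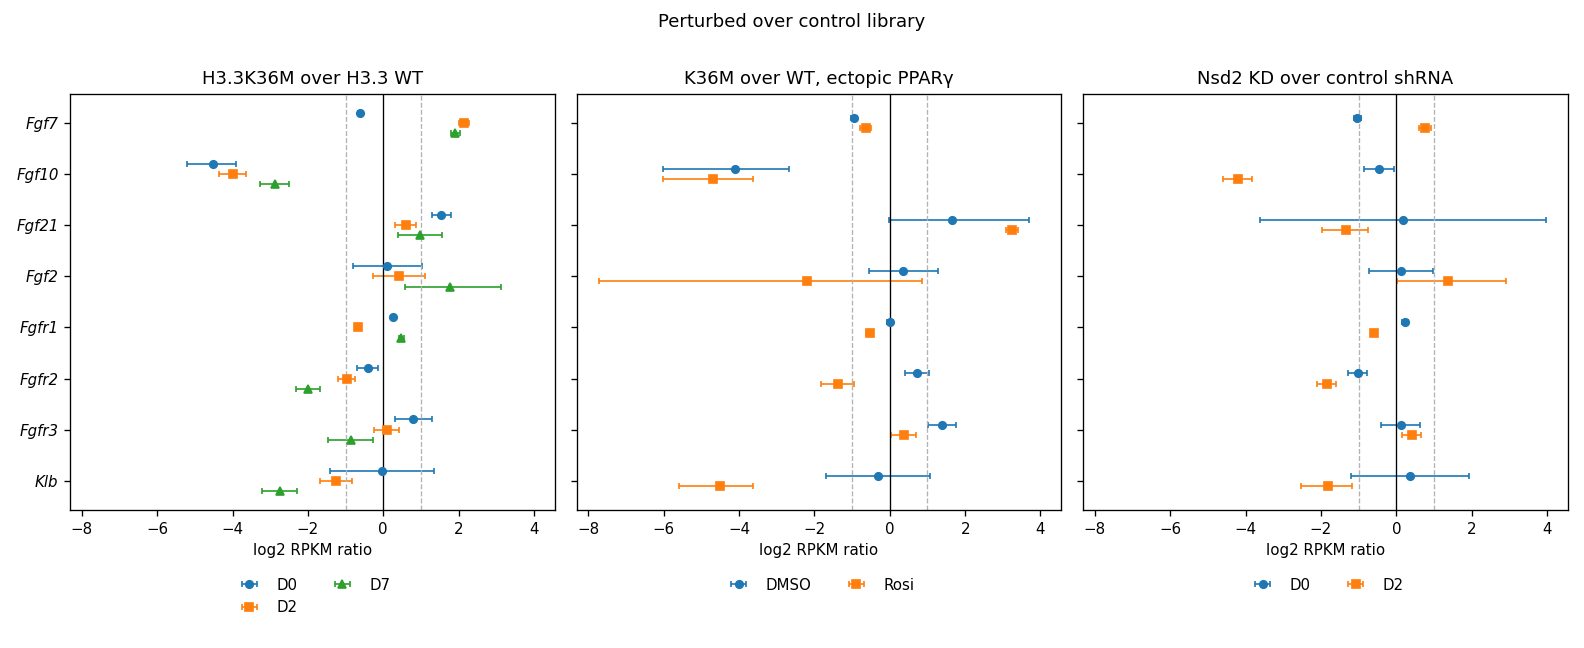
Log2 RPKM ratio of perturbed to control library for 8 members, with 95% counting intervals. Panels show K36M over WT at D0, D2 and D7, K36M over WT with ectopic PPARγ and DMSO or Rosi, and KD over Ctrl at D0 and D2, and dashed lines mark 2-fold. *Fgf10* lies at -3.98 and -4.20 at D2, *Klb* at -4.52 with Rosi, and *Fgf21* at 3.24 with Rosi.

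The members were then counted against all genes, a gene being called when its RPKM ratio was over 2-fold, provided that either library of the pair had reads. WT cells had 7 of 10 members called between D0 and D2 (5 up, 2 down), where 38.8% of 17591 genes were called, and K36M cells had 4 (all up), where 36.1% were. Ctrl cells had 8 members called over the same step (4 up, 4 down), against 40.6% of genes, and KD cells 3 (all up), against 41.4%. From D2 to D7, 6 members were called for WT (34.6% of genes) and 4 for K36M cells (36.4%). The median log2 ratio of the members from D0 to D2 was 0.74 in WT, 0.27 in K36M, 0.43 in Ctrl and -0.05 in KD cells, when that of all genes was -0.04, -0.07, 0.00062 and -0.02. More members passed 2-fold at D2 in control than in perturbed cells. However, the counts and medians include *Fgf10*, on which the set was partly chosen, and *Fgf1* and *Fgfr4*, which never reached an RPKM of 1. Without *Fgf10*, 6 of 9 members were called from D0 to D2 in WT, 3 in K36M, 7 in Ctrl and 3 in KD cells.

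With Rosi, 8 members were called in WT cells (6 up, 2 down), against 33.1% of genes, and 5 in K36M cells (2 up, 3 down), against 33.2%, and a pseudocount of 0.1 left 5 and 2. *Fgf10*, *Fgf21*, *Fgfr2*, *Fgfr3* and *Klb* were past 2-fold with Rosi in WT cells with intervals that exclude equal levels, and *Fgf21* did so upward in K36M cells. The median log2 ratio of the members was 1.16 in WT (with 3 reads in place of 0 for *Fgfr4*) and -0.50 in K36M cells, against 0.09 and 0.06 for all genes. K36M over WT gave 3 called members at D0 (26.8% of genes), 3 at D2 (32.1%) and 7 at D7 (32.9%), of which 5 were lower. In that comparison with ectopic PPARγ, 5 were called with DMSO (32.2%) and 7 with Rosi (41.1%). With a minimum RPKM of 1, 1 and 4 of these were left, where 8.2% and 19.1% of genes were called. When the interval had to exclude equal levels, 3 and 4 were left. KD over Ctrl gave 4 at D0 (31.6%), all lower, and 7 at D2 (30.4%), with 3 higher and 4 lower. With a minimum RPKM of 1, 2 of those at D0 were left, where 17.4% of genes were called. Since *Fgf10* was used to choose the set, the counts were also made over the other 9 members. These gave 7 and 4 for Rosi over DMSO in WT and K36M cells, and 2, 2 and 6 for K36M over WT (D0, D2, D7). They gave 4 and 6 for K36M over WT with DMSO and Rosi, and 4 and 6 for KD over Ctrl (D0, D2). The Rosi medians above include *Fgf10*. Between the control populations, 4 members were called in Ctrl over WT at D0 (35.1% of genes) and 5 at D2 (27.8%). The number called between control populations was thus not below that for K36M over WT at D0 and D2. With a minimum RPKM of 1, 3 were left at D0 and 3 at D2 for Ctrl over WT (22.2% and 11.2% of genes). For K36M over WT 2 and 3 were left (11.4% and 15.6% of genes). When the interval had to exclude equal levels, 4 and 3 were left for Ctrl over WT, and 2 and 3 for K36M over WT.

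**Figure D5:**
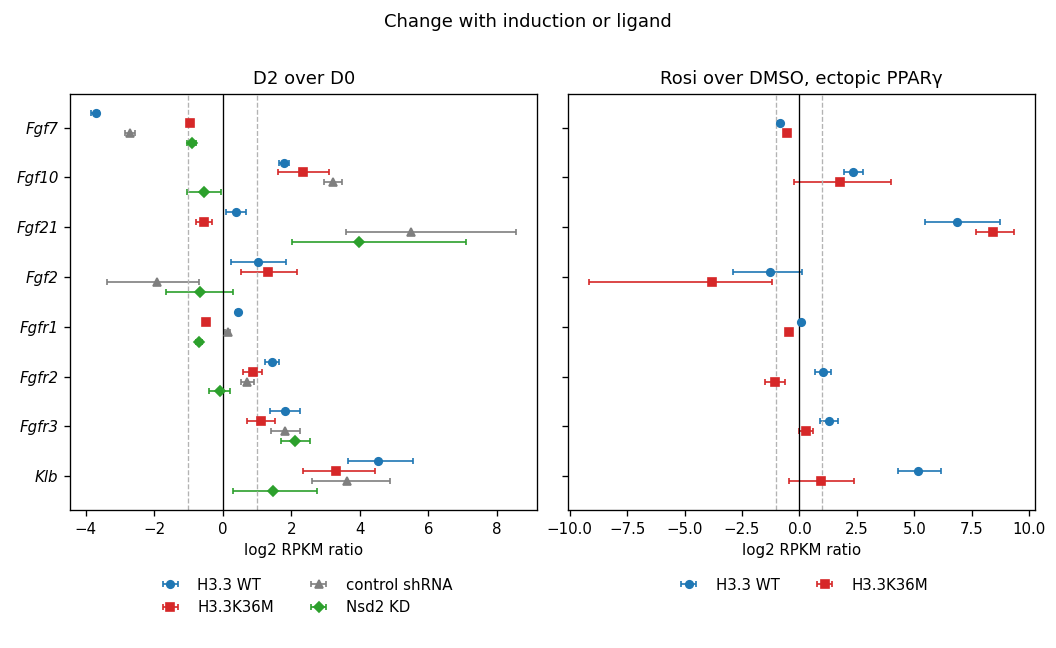
Log2 RPKM ratio of 8 members from D0 to D2 in WT, K36M, Ctrl and KD cells (left) and from DMSO to Rosi in WT and K36M cells with ectopic PPARγ (right, on a wider scale), with 95% counting intervals and dashed lines at 2-fold. *Fgf7* is at -3.71 and -2.71 in the control cells and at -0.95 and -0.90 in the perturbed cells, and *Klb* reaches 5.16 with Rosi in WT cells.

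Downstream of the receptors, 18 genes for adaptors and the MAP kinase cascade were counted. Of these, 0 passed 2-fold in K36M over WT at D0, D2 or D7, or in KD over Ctrl at D0 or D2. Each of the 18 reached an RPKM of 1. Under a minimum RPKM of 1, 11.4%, 15.6% and 20.2% of genes were called in K36M over WT. In KD over Ctrl these shares were 17.4% and 14.4%. With ectopic PPARγ, 0 of the 18 passed in K36M over WT with DMSO, against 8.2% of genes under this minimum. With Rosi 2 were lower, against 19.1% of genes in either direction. These were *Frs2*, an FGF receptor adaptor, with an RPKM of 9.78 in WT against 4.77 in K36M cells, and *Mapk3*, the gene of the kinase ERK1, with 63.1 against 28.2. *Mapk3* also passed 2-fold between D0 and D2 in control cells, from 52.1 to 25.2 in WT and from 56.1 to 25.1 in Ctrl cells. Among 13 feedback inhibitors and transcriptional targets of FGF signaling, 1 was higher and 3 lower past 2-fold in K36M over WT at D2, where 22.2% of all genes were higher and 9.90% lower. In KD over Ctrl at D2, 1 was higher and 5 lower, where 30.4% of all genes passed 2-fold in either direction. *Spry4*, which encodes a Sprouty inhibitor of receptor signaling, was lower in both comparisons. Its RPKM at D2 was 14.2 in WT, 6.03 in K36M, 5.12 in Ctrl and 0.95 in KD cells, against 2.21, 2.57, 2.25 and 0.800 at D0. With Rosi it reached 8.78 in WT and 1.94 in K36M cells. *Dusp4*, a MAP kinase phosphatase, was likewise lower at D2, with 44.2 in WT, 8.91 in K36M, 21.0 in Ctrl and 1.98 in KD cells. At D0, however, *Dusp4* was higher in K36M (23.1) than in WT cells (5.26). *Dusp5*, another phosphatase of ERK, was higher at D2, with 2.90 in K36M against 1.22 in WT and 4.26 in KD against 0.988 in Ctrl cells. At D7, 6 of the 13 were higher and 0 lower past 2-fold in K36M over WT cells, against 19.7% and 13.2% of all genes, while *Spry4* had a log2 ratio of -0.51.

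The control populations differed for these genes as well, since *Spry4* was 2.21 in WT and 2.25 in Ctrl cells at D0 but 14.2 and 5.12 at D2. Of 18 genes for heparan sulfate proteoglycans and their synthesis, 3 were higher and 1 lower past 2-fold in K36M over WT at D2. Of all genes, 22.2% were higher and 9.90% lower there. In KD over Ctrl at D2, 1 of the 18 was higher and 2 lower, where 30.4% of all genes passed in either direction. Between D0 and D2, 8 of the 18 were lower in WT (25.2% of all genes), 4 in K36M (19.6%), 7 in Ctrl (23.4%) and 9 in KD cells (24.5%). Over this step 2 were higher in WT (13.6% of all genes), 2 in K36M (16.5%), and 0 in Ctrl (17.3%) or KD cells (16.9%). Among 8 co-receptors and binding proteins, *Fgfrl1*, a receptor-like gene without a kinase domain, rose from 11.1 to 84.8 in WT and from 10.5 to 76.7 in K36M cells between D0 and D2, and from 11.9 to 41.9 in Ctrl cells, against 20.2 and 26.0 in KD cells.

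Finally, the pattern of each member over the 14 libraries was compared with 11899 genes of mean RPKM of at least 1, by Pearson correlation of log2(RPKM + 0.1). These libraries share cells and controls, so the values are a description. *Fgf10* was most like *Atg4c* (r = 0.91), *Dock4* (0.89), *Nrip1* (0.89), *Ipo8* (0.89) and *Pik3r1* (0.89). *Nrip1* encodes a nuclear receptor corepressor and *Pik3r1* a regulatory subunit of PI3 kinase. *Fgf21* was most like *Acot2* (0.92), a mitochondrial thioesterase gene, *Eif4ebp1* (0.91), an inhibitor of translation initiation, and *Nupr1* (0.90), a stress-induced gene. *Fgf7* was most like *Steap2* (0.92), *Pdlim5* (0.91) and *Wipf1* (0.90), *Fgfr1* like *Hnrnph2* (0.94), *Zfp715* (0.93) and *Ttc9c* (0.90), and *Fgfr2* like *Pxdn* (0.92), *Smoc1* (0.91) and *Ganab* (0.88). For *Fgf2* these were *Niban2* (0.90), *Slx4* (0.90) and *Snord12* (0.88), and for *Fgfr3* they were *L3mbtl2*, *Coq3* and *H2-Ke6* (0.82 to 0.83). Among the members themselves the highest value was 0.82, for *Fgf10* and *Fgfr2*, and the lowest was -0.76, for *Fgf7* and *Fgfr3*.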

How the data were processed

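RNA-Seq libraries were made by the authors from mRNA purified with Dynabeads, converted to double-stranded cDNA and sequenced on an Illumina HiSeq. The authors deposited RPKM per RefSeq transcript (29082 per library), that is, reads divided by transcript length and mapped reads. The build is mm9 and CASAVA 1.8.2 is named in the submitters' processing notes, while the aligner, the counter and any filter are not given in the sources used here. Groups follow the sample labels, 1 library per condition. The ChIP-Seq samples were not analysed here.

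The members, the gene lists and the tests were chosen with earlier results of these data known. Transcripts were matched to symbols through the RefSeq table of GRCm38.p6 (28436 of 29082), and the transcript of largest mean RPKM stood for each gene. Coordinates are from GENCODE M1 on mm9. From the RPKM steps, whole reads were obtained for 26943 (99.9889%, within 0.002 reads) of the 26946 transcripts detected in at least 2 of the 14 libraries. Clopper-Pearson intervals (95%) were computed for the share of a pair's reads that fell in its first library, and cover counting error only. The recovery, calls and intervals were tested on simulated data. No test across conditions was made, since each condition has 1 library. Genes named outside the 10 members were feedback, cascade or co-receptor genes of the lists, named when past 2-fold in the same direction in K36M over WT and KD over Ctrl at D2 with RPKM of at least 1 (*Spry4*, *Dusp4*, *Dusp5*), the genes of most similar pattern (5 for *Fgf10*, 3 for each other member at RPKM of at least 1 in at least 7 libraries), markers, overlapping genes and *Nsd2*. *Mapk3*, *Frs2*, *Fgfrl1* and *Fgf18*, and the promoter motifs, were chosen after the values or windows were seen. Alternatives were a minimum RPKM of 1, pseudocounts of 0.1 and 1, rescaling by the median ratio, the mean over transcripts, and an interval that excludes equal levels. Python 3.11.15, NumPy 2.4.6, pandas 2.3.3, SciPy 1.17.1 and matplotlib 3.10.9 were used.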

Additional observations from a re-analysis of the deposited data

Results flagged for a closer look

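Among 80 combinations of a member and a pair of matching contrasts, 13 moved in opposite directions past the counting interval in each. None of these differences was tested, since every group is 1 library, and several are the same 4 libraries read in 2 ways. *Fgf7* was lower in K36M than in WT cells at D0 and higher at D2, with a difference of 2.76 between the log2 ratios, and the same holds for KD over Ctrl, with 1.81. *Fgf10* was higher at D2 than at D0 in Ctrl and lower in KD cells, a difference of -3.76. Since the set was partly chosen on the lower *Fgf10* in both perturbations, this value is a description and not a separate result. *Fgf21* went up slightly from D0 to D2 in WT and down in K36M cells (difference -0.93).

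*Fgfr1* gave 7 of the 13, each from ratios under 2-fold. From D0 to D2 its log2 ratio in K36M minus that in WT cells was -0.93, which is also K36M over WT at D2 minus D0, and the corresponding value for KD and Ctrl cells was -0.83. From D2 to D7 the difference was 1.15, in either reading, and for Rosi over DMSO it was -0.54. *Fgfr2* went up with Rosi in WT and down in K36M cells, a difference of -2.10 that is also K36M over WT with Rosi minus DMSO.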

How the results depend on the processing

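No paired analysis was run. Each condition has 1 library, so the groups compared share no more than 1 replicate number and the ratios come from no test. For the same reason no library could be left out. A fit that takes the days as blocks, with the interaction of day and cells as error, was not run. The alternatives for Ctrl over WT were added after seeing the data. The direction of 1 of 168 log2 ratios changed, that of *Fgfr2* in Ctrl over WT at D2, from -0.06 to 0.05 with rescaling, both within counting error. The number of members over 2-fold moved by over 1.5 times in these cases. With a pseudocount of 1 it was 3 for D7 over D2 in WT cells, 1 for D2 over D0 and 2 for D7 over D2 in K36M cells, 3 and 2 for Rosi over DMSO in WT and K36M cells, 0 and 3 for K36M over WT with DMSO and Rosi, 5 for D2 over D0 in Ctrl cells, 1 and 2 for KD over Ctrl at D0 and D2, and 2 for Ctrl over WT at D2. With a pseudocount of 0.1 it was 5 and 2 for Rosi over DMSO in WT and K36M cells, 2 for KD over Ctrl at D0 and 3 for Ctrl over WT at D2. Rescaling by the median ratio gave 5 for K36M over WT at D2. Asking that the interval exclude equal levels gave 5 for Rosi over DMSO in WT cells, 3 and 4 for K36M over WT with DMSO and Rosi, and 3 for Ctrl over WT at D2. With a minimum RPKM of 1 it was 3 for Rosi over DMSO in K36M cells, 1 and 4 for K36M over WT with DMSO and Rosi, 2 for KD over Ctrl at D0 and 3 for Ctrl over WT at D2. The pseudocounts pull low genes toward 1 by construction, and the cause of the other changes was not tested. Of these 168 ratios, 43 moved beyond their counting interval with a pseudocount of 1, 2 with a pseudocount of 0.1, 9 with rescaling and 0 with the mean over transcripts. Depth limits *Fgf1*, *Fgf2* and *Fgfr4*, at no more than 40 reads in any library, and the levels of *Klb* and *Fgf21* before induction in the PPARγ and shRNA series.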
